A study of Mus musculus with 8 samples.

Results

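The genes described here encode the 5 subunits of the transcription factor NF-kB (Nfkb1, Nfkb2, Rel, Rela and Relb) and 5 proteins that act on it in feedback (Nfkbia, Nfkbiz, Nfkbid, Tnfaip3 and Bcl3). They were chosen by name, and their symbols were matched to Ensembl identifiers through GENCODE M21 on the mouse genome build GRCm38, which found all 10 among the 51826 genes of the count table. RNA was sequenced from total splenocytes of female BALB/c mice, in 4 mice given all-trans-retinoic acid (tRA), an active form of vitamin A, and 4 control mice given the vehicle, canola oil. Dosing was oral and daily from weaning, tRA was given at 1 mg/kg body weight, spleens were taken at 3 months of age, and neither group received pristane. The vehicle comes from the paper's methods and the grouping from the sample titles, because the treatment text of the labels names tRA for all 8 samples. Total splenocytes are a mixture of all white cells of the spleen, left after lysis of red cells, so in these bulk libraries fewer cells of a type and less RNA per cell cannot be told apart.

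NF-kB subunits pair into dimers that inhibitor proteins hold in the cytoplasm of resting cells. When a receptor for antigen, a cytokine or a microbial product is engaged, a kinase complex marks the inhibitor for destruction, the dimer enters the nucleus, and among the genes it switches on are those of its own inhibitors, which closes a feedback loop. In the spleen the pathway is known for the activation and survival of B cells and T cells.

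Library depth was 30.9 to 37.5 M counts on genes in the control mice (median 33.9 M) and 31.8 to 35.2 M in the tRA mice (median 32.9 M). Levels are given as CPM, counts scaled per M counts of a library after normalization by the TMM method, and the lowest count of any of the 10 genes in any library was 1527, for Bcl3. All 10 passed the filter on low counts, which kept 16484 genes. The splenocyte label was checked against markers of its cells: B cell markers summed to between 6322 and 7570 CPM over the 8 libraries and T cell markers to between 1540 and 1898 CPM, while the platelet genes Pf4, Ppbp and Gp9 and the fibroblast collagen Col1a1 were below 1 CPM in every library and the collagen Col3a1 was at most 1.03 CPM. The other listed platelet genes, Itga2b and Gp1ba, were at most 6.65 and 4.55 CPM, and the stromal gene Pdgfrb at most 3.55 CPM. Of the endothelial genes, Pecam1, which leukocytes also express, was at 233 to 245 CPM, and Cdh5 and Kdr were each at most 6.70 CPM. Erythroid markers summed to between 491 and 3541 CPM, above the T cell sum in some libraries.

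The difference that stood out lay among the tRA mice and mainly in the inhibitors. In tRA mouse 1, Tnfaip3 was at 960 CPM and Nfkbid at 677 CPM, the highest values of the 8 mice, and in tRA mouse 3 they were at 155 and 156 CPM, the lowest. In the control mice Nfkbid stayed between 450 and 485 CPM. Over the tRA mice each of the 5 subunits had a smaller SD of log2 CPM than Tnfaip3, Nfkbid, Nfkbia and Nfkbiz. Rel was the most variable subunit, and over the control mice its SD of 0.34 was above that of each inhibitor. Between the groups, the fitted log2 fold change of tRA over control was below 0 for 10 of the 10 genes, where 49.7% of all genes tested were below 0, but library size alone in place of TMM turned Nfkb1 to 0.017, and leaving out 1 mouse also turned Nfkb1 (control mouse 1 or tRA mouse 1) or Nfkbiz (tRA mouse 3), each leaving 9 of the 10 below 0. The median log2 fold change was -0.11 over the subunits, -0.27 over the inhibitors and 0.0014 over all genes tested. The inhibitor median was -0.55 without tRA mouse 1, -0.09 without tRA mouse 3 and -0.13 without tRA mouse 4.

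In the quasi-likelihood test of edgeR, with p-values adjusted by Benjamini-Hochberg, 0 of the 10 genes had an FDR under 0.1, where 0% of the 16484 genes tested did. At an unadjusted p under 0.05, 0 of the 10 passed, where 3.55% of all genes passed as lower with tRA and 2.94% as higher. DESeq2 called 27 genes of the whole table and limma-voom 1, and each called 0 of these 10. All tRA mice were below all control mice for 1 of the 10 genes, Nfkb2, where 1.63% of all genes showed this, and all tRA mice were above for 0 of the 10, where 1.91% did. These counts moved with single mice. Without tRA mouse 1, 5 of the 10 had an unadjusted p under 0.05 (Relb, Bcl3, Nfkbid, Tnfaip3 and Nfkbia) and 5 had all tRA mice below all control mice (Nfkb2, Rela, Relb, Nfkbid and Bcl3), while the shares over all 16683 genes tested in that setting also went up, to 7.68% lower at that p and 6.97% with all tRA mice below. Without control mouse 2, Bcl3 joined both counts, and without control mouse 3, Rel joined both, which made 1 and 2 of the 10 in either setting. Over all genes, 3.97% were lower at that p and 3.29% had all tRA mice below without control mouse 2, and 2.85% and 2.75% without control mouse 3. Two-sided exact permutation tests of the 9 genes other than Nfkb2 gave p-values from 0.0571 (Bcl3) to 0.686 (Nfkb1). In each of these settings 0 of the 10 had an FDR under 0.1.

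**Figure D1:**
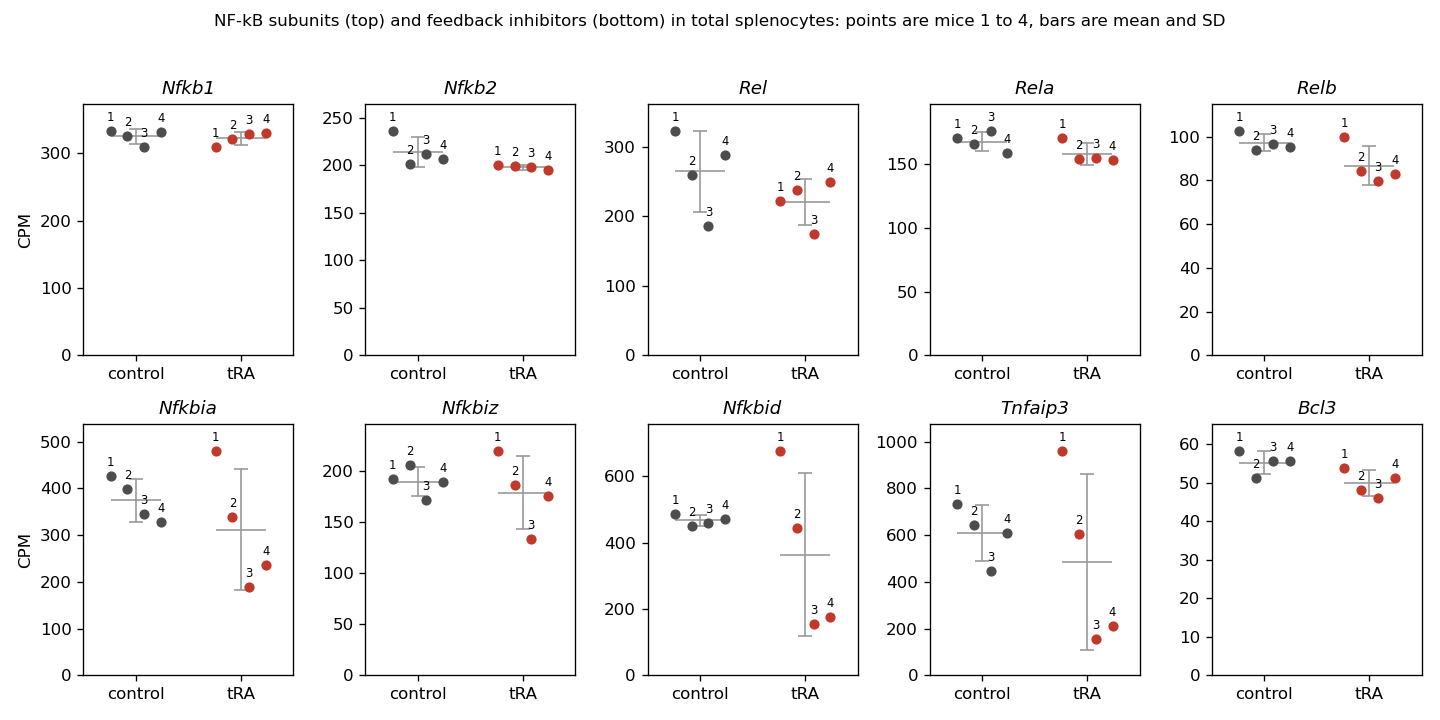
CPM (vertical axes, from 0) of the 5 NF-kB subunits (top row) and the 5 feedback inhibitors (bottom row) in 4 control and 4 tRA mice; numbered points are mice, and bars are the mean and SD of each group. Tnfaip3 and Nfkbid spread from 155 to 960 CPM and from 156 to 677 CPM over the tRA mice, and Nfkb2 is the gene whose groups do not overlap.

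Among the subunits, Nfkb1 (ENSMUSG00000028163, chr3:135584655-135691547, minus strand) encodes a precursor whose shortened form pairs with Rela in the classical dimer. Its level was 334, 326, 309 and 333 CPM in control mice 1 to 4 and 310, 321, 329 and 331 CPM in tRA mice 1 to 4. The groups overlapped almost completely, with 1 low mouse in each. The log2 fold change was -0.01 ± 0.0613 (SE) with an FDR of 0.980 in edgeR's quasi-likelihood test, and its 95% interval ran from -0.15 to 0.12.

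Rela (ENSMUSG00000024927, chr19:5637483-5648130, plus strand) encodes the main activating subunit of the classical pathway. It was at 170, 166, 176 and 159 CPM in the control mice and 171, 154, 155 and 153 CPM in the tRA mice. Mouse 1 of the tRA group lay within the control range and the other 3 tRA mice lay below it, so the groups overlapped through 1 mouse. Rela had a log2 fold change of -0.08 ± 0.0633 (SE) and an FDR of 0.813 by edgeR's quasi-likelihood test.

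Rel (ENSMUSG00000020275, chr11:23736847-23770970, minus strand) encodes c-Rel, the activating subunit that lymphocytes use on antigen stimulation. Its values were 323, 260, 186 and 289 CPM in the control mice and 222, 238, 174 and 249 CPM in the tRA mice. Mouse 3 was the lowest of its group in both, the highest value was that of control mouse 1, and the groups overlapped. The group means were 265 ± 58.3 CPM (SD, n = 4) and 221 ± 33.1 CPM (SD, n = 4). For Rel the log2 fold change was -0.26 ± 0.160 (SE), with an FDR of 0.793 in edgeR's quasi-likelihood test and a 95% interval from -0.61 to 0.09. It was -0.15 without control mouse 1, -0.16 without tRA mouse 3 and -0.40 without control mouse 3.

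The subunits of the alternative pathway, which receptors such as those for lymphotoxin and BAFF engage, are Nfkb2 and Relb. Nfkb2 (ENSMUSG00000025225, chr19:46304320-46312385, plus strand), whose precursor also acts as an inhibitor of Relb, was at 236, 202, 212 and 206 CPM in the control mice and 200, 199, 198 and 194 CPM in the tRA mice. All tRA mice lay below all control mice, but the gap was narrow, from 200 CPM in the highest tRA mouse to 202 CPM in the lowest control mouse, and with library size alone in place of TMM the groups overlapped. Its log2 fold change was -0.11 ± 0.0655 (SE), with a two-sided exact permutation p of 0.0286, the smallest that 4 against 4 can give, and an FDR of 0.791 in edgeR's quasi-likelihood test. Without control mouse 1, the highest of the 8, the log2 fold change was -0.06. Exons of Nfkb2 share 299 bp with Psd and 531 bp with AC114539.1, both on the opposite strand. Psd had 11068 counts over the 8 libraries against 55417 for Nfkb2, and AC114539.1 was not analysed here. The sources used here do not give the strand setting of the counting, so reads from those stretches cannot be assigned to a gene with certainty.

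Relb (ENSMUSG00000002983, chr7:19606217-19629438, minus strand), the partner of processed Nfkb2, was at 103, 93.8, 96.5 and 95.5 CPM in the control mice and 99.7, 84.5, 79.6 and 82.9 CPM in the tRA mice. As for Rela, tRA mouse 1 lay within the control range and the other 3 tRA mice lay below it. The means were 97.1 ± 3.88 CPM (SD, n = 4) in control and 86.7 ± 8.89 CPM (SD, n = 4) in tRA mice. Relb had the lowest FDR of the 10 genes, 0.769 by edgeR's quasi-likelihood test, with a log2 fold change of -0.16 ± 0.0777 (SE) and a 95% interval from -0.34 to 0.0072.

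Tnfaip3 (ENSMUSG00000019850, chr10:19000910-19015657, minus strand) encodes a ubiquitin-editing enzyme that shuts off signaling upstream of the kinase complex. Its level was 732, 644, 447 and 610 CPM in control mice 1 to 4 and 960, 606, 155 and 211 CPM in tRA mice 1 to 4. Mouse 1 of the tRA group was above every control mouse, mouse 2 was inside the control range, and mice 3 and 4 were below every control mouse. Its level in tRA mouse 1 was 6.21 times that in tRA mouse 3, whereas the highest control mouse was 1.64 times the lowest. The means, 608 ± 119 CPM (SD, n = 4) and 483 ± 376 CPM (SD, n = 4), differed by less than the spread of the tRA mice. The log2 fold change was -0.33 ± 0.468 (SE), with a 95% interval from -1.37 to 0.70 and an FDR of 0.897 by edgeR's quasi-likelihood test. It was -0.91 without tRA mouse 1, -0.04 without tRA mouse 3 and -0.085 without tRA mouse 4. Limma-voom, which averages log values, gave -0.69.

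Nfkbid (ENSMUSG00000036931, chr7:30421732-30428746, plus strand) encodes a nuclear inhibitor protein that binds NF-kB dimers on DNA. It was at 485, 450, 461 and 472 CPM in the control mice and 677, 444, 156 and 177 CPM in the tRA mice. The control mice lay close together, tRA mouse 1 was above all of them, tRA mouse 2 just below the lowest of them, and tRA mice 3 and 4 far below. The fold between tRA mice 1 and 3 was 4.33, against 1.08 between the highest and the lowest control mouse. Group means were 467 ± 15.3 CPM (SD, n = 4) and 364 ± 247 CPM (SD, n = 4). The fitted log2 fold change of -0.36 ± 0.384 (SE) had an FDR of 0.867 in edgeR's quasi-likelihood test, and it was -0.85 without tRA mouse 1, -0.11 without tRA mouse 3 and -0.13 without tRA mouse 4. With limma-voom it was -0.63.

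Nfkbia (ENSMUSG00000021025, chr12:55489410-55492647, minus strand) encodes the classical inhibitor that holds dimers in the cytoplasm. Its values were 426, 399, 345 and 328 CPM in the control mice and 480, 340, 188 and 237 CPM in the tRA mice. The pattern was that of Tnfaip3 with a smaller range: tRA mouse 1 was the highest of all 8, tRA mouse 2 lay within the control range, and tRA mice 3 and 4 were the lowest. Between tRA mice 1 and 3 the fold was 2.55, and between the highest and lowest control mouse it was 1.30. The log2 fold change of Nfkbia was -0.27 ± 0.238 (SE), with an FDR of 0.846 in edgeR's quasi-likelihood test. It was -0.55 without tRA mouse 1, -0.09 without tRA mouse 3 and -0.16 without tRA mouse 4.

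Nfkbiz (ENSMUSG00000035356, chr16:55811375-55838899, minus strand) encodes a nuclear member of the same inhibitor family that also helps to switch on a subset of NF-kB target genes. Its level was 192, 205, 172 and 189 CPM in the control mice and 220, 186, 133 and 176 CPM in the tRA mice. Again tRA mouse 1 was the highest and tRA mouse 3 the lowest of the 8, with a fold of 1.65 between them, but tRA mouse 4 was within the control range. The log2 fold change was -0.09 ± 0.128 (SE) and the FDR 0.901 by edgeR's quasi-likelihood test. It was -0.20 without tRA mouse 1, -0.14 without control mouse 3, -0.05 without control mouse 2 and 0.030 without tRA mouse 3.

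Bcl3 (ENSMUSG00000053175, chr7:19808462-19822770, minus strand), a nuclear member that binds dimers of the processed precursors, was the least abundant of the 10. It was at 58.2, 51.2, 55.7 and 55.6 CPM in the control mice and 53.8, 48.1, 46.1 and 51.2 CPM in the tRA mice. The groups overlapped at their edges, and the fold between the highest and the lowest tRA mouse was 1.17, against 6.21 for Tnfaip3. The means were 55.2 ± 2.91 CPM (SD, n = 4) and 49.8 ± 3.39 CPM (SD, n = 4), the log2 fold change was -0.15 ± 0.0722 (SE), and the FDR was 0.776 by edgeR's quasi-likelihood test. Its exons share 161 bp with the antisense gene Gm16175, which had 122 counts over the 8 libraries against 14109 for Bcl3.

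The order of the tRA mice was shared by several of the genes. After the values were seen, it was counted how often tRA mice 3 and 4 were the 2 lowest of the 8 mice: this held for 5 of the 10 genes (Nfkb2, Relb, Nfkbia, Nfkbid and Tnfaip3), where 10.4% of all genes tested showed it. With library size alone in place of TMM it held for 3, Nfkbia, Nfkbid and Tnfaip3. The share over all genes with that scaling is not given here, so this 3 has no share of its own to be set against. Mouse 1 of the tRA group was the highest of the 8 for 4 of the 10 (Nfkbia, Nfkbiz, Nfkbid and Tnfaip3), where 12% of all genes showed it. The SD of log2 CPM was larger in tRA than in control mice for 7 of the 10 genes, and for 4091 of the 9111 genes with a mean of at least 10 CPM.

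On the log2 scale, the SD over the tRA mice was 1.24 for Tnfaip3, 1.03 for Nfkbid, 0.59 for Nfkbia and 0.30 for Nfkbiz. Of the 9111 genes at 10 CPM or more, 16 had a larger SD over the tRA mice than Tnfaip3, 27 than Nfkbid, 148 than Nfkbia and 657 than Nfkbiz. In the control mice the same genes had SDs of 0.30, 0.047, 0.18 and 0.11. Nfkbid, among the most variable genes of the tRA mice, was among the least variable of the controls, where 8510 of the 9111 genes had a larger SD. Nfkb2 went the other way, with an SD of 0.10 over the control mice and 0.017 over the tRA mice.

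**Figure D2:**
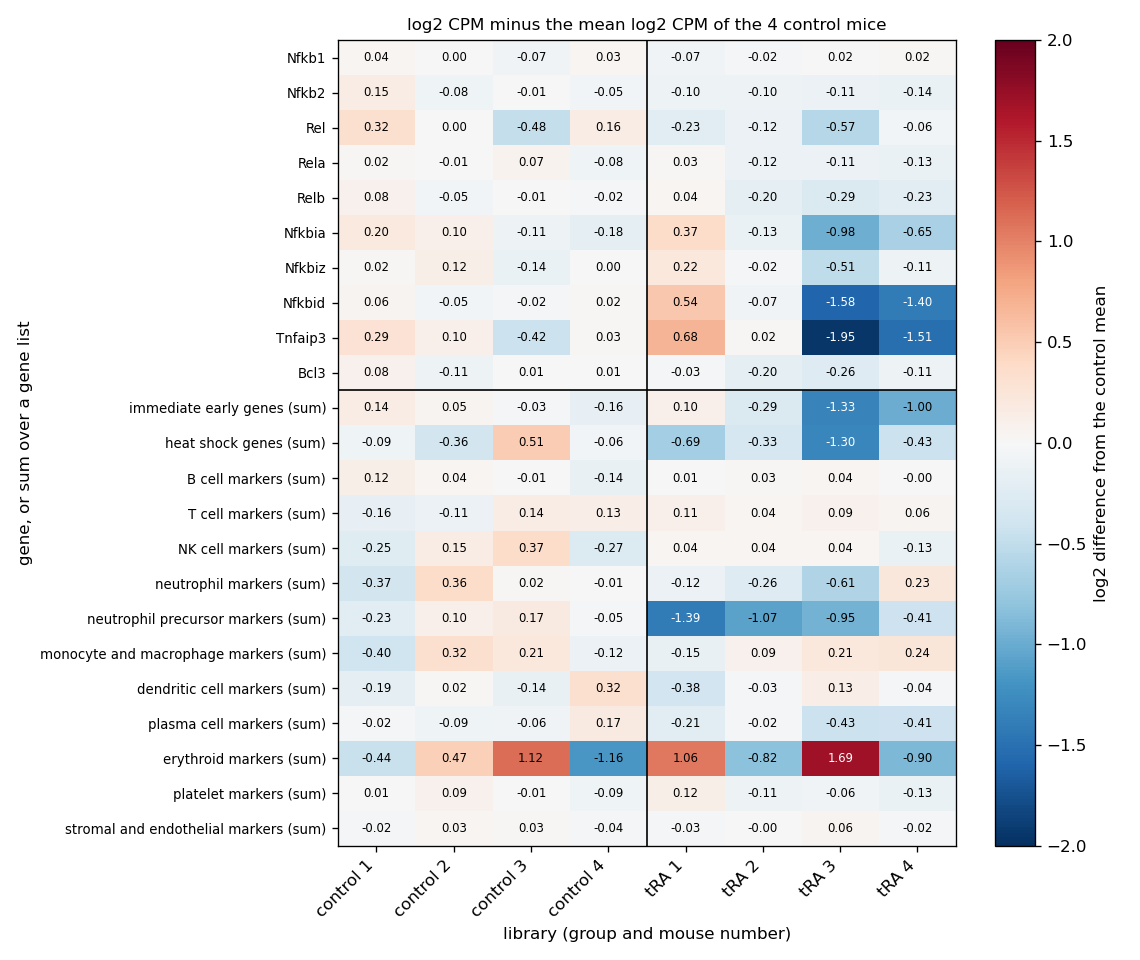
Each cell gives the log2 CPM of a gene, or of the sum over a gene list, in 1 mouse minus the mean log2 CPM of the 4 control mice; rows are the 10 NF-kB genes (above the line) and lists of stress response and cell type markers (below it), and columns are mice. Tnfaip3 is at -1.95 and -1.51 in tRA mice 3 and 4 and at 0.68 in tRA mouse 1, and the sum over immediate early genes is at -1.33 in tRA mouse 3.

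Levels between the genes were compared per length, as RPKM, CPM per kilobase of exon. The length was that of all annotated exons of a gene merged, from 1610 bp for Nfkbia to 12061 bp for Nfkb1. The order between genes depends on these lengths. In the control mice the order was Nfkbia at 233 ± 28.4 RPKM (SD, n = 4), Nfkbid at 199 ± 6.54, Tnfaip3 at 84.2 ± 16.5, Rela at 54.6 ± 2.42 and Nfkb2 at 46.7 ± 3.36 RPKM. Nfkbiz followed at 37.8 ± 2.75 RPKM (SD, n = 4), then Rel at 35.5 ± 7.81, Nfkb1 at 27.0 ± 0.951, Relb at 25.0 ± 0.998 and Bcl3 at 22.3 ± 1.18 RPKM. The ranges of neighbours overlapped in the control mice for Nfkbia and Nfkbid, Nfkbiz and Rel, Rel and Nfkb1, and Nfkb1 and Relb. Within each mouse, however, Nfkbia was above Nfkbid and Nfkb1 above Relb in 8 of 8 mice, and Nfkbiz was above Rel and Rel above Nfkb1 in 6 of 8. Among neighbours whose control ranges did not overlap, Tnfaip3 was above Rela in 6 of 8 mice and Nfkb2 above Nfkbiz in 7 of 8. In tRA mice 3 and 4, Tnfaip3 was at 21.4 and 29.2 RPKM, below Rela at 50.4 and 49.9 RPKM. The mean RPKM over the 4 tRA mice gave the same order as the control mean. Summed over the 5 subunits, the level was 204, 184, 179 and 187 RPKM in control mice 1 to 4 and 180, 174, 165 and 175 RPKM in tRA mice 1 to 4. The 5 inhibitors summed to 635, 590, 529 and 550 RPKM in the control mice and 785, 541, 250 and 308 RPKM in the tRA mice. Inhibitor RNA thus exceeded subunit RNA per length in all 8 mice, by the least in tRA mouse 3 and by the most in tRA mouse 1. In CPM, without the lengths, the inhibitor sum was below the subunit sum in tRA mice 3 and 4. It was 679 against 935 CPM in mouse 3 and 852 against 1011 CPM in mouse 4, and above the subunit sum in the other mice.

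Likeness to other genes was measured as the root mean square difference of log2 CPM over the 8 mice, after each gene was centred on its mean, for the most variable subunit and the most variable inhibitor. For Tnfaip3 the 5 genes most alike, of 9101 compared, were Bhlhe40 (0.12), Cxcr4 (0.13), Sik1 (0.15), Grasp (0.17) and Plk2 (0.18), where the median gene was at 0.86. Cxcr4, a chemokine receptor, was at 1540, 1108, 952 and 1029 CPM in the control mice and 1629, 1111, 260 and 404 CPM in the tRA mice. Cxcr4 was highest in tRA mouse 1 and lowest in tRA mice 3 and 4, an order that follows from its choice by likeness to Tnfaip3. For Rel the 5 were Skil (0.11), Kif5b (0.11), Arl5b (0.11), Cltc (0.13) and Rest (0.13), with the median gene at 0.31. Among the 10 genes themselves, Nfkbid was the most like Tnfaip3 (0.23), and the most alike pair was Relb and Bcl3 (0.055).

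Promoters of the subunits and inhibitors were searched for the kappa B motif, the DNA letters that NF-kB dimers bind. RefSeq windows on GRCm38.p6, from 250 bases before to 50 bases after a transcript start, were given for 7 of the 10 genes, 12 windows in all; Nfkb1, Nfkbiz and Relb were not among them. The motif GGNNTTTCC (GGAAANNCC on the other strand) was in 7 of the 12 windows and 5 of the 7 genes, where 5.82% of 32851 windows held it, and a second form, GGGNNTTCC (GGAANNCCC on the other strand) was in 5 windows and 5 genes, where 5.82% also held it. The forms overlap, since the letters GGGCTTTCC fit both, and 2 of the windows of Nfkb2 overlap and share 1 match. Bcl3, Nfkb2, Rel and Tnfaip3 held both forms, Nfkbia the first and Nfkbid the second. Both shares of 5.82% are per window. A gene with several windows has more chances of a match, so the counts of genes have no like share here. Below are the windows of the 3 inhibitors with the widest spread over the tRA mice and of Nfkb2, the gene whose groups did not overlap, each 5′ to 3′ on the strand of the gene, with matches to either form in capitals. For genes with several windows, 1 with matches is shown. The other window of Tnfaip3 and the other 2 of Nfkbid held neither form, and the other 2 of Nfkb2 held the first. The Tnfaip3 window (chr10:19015361-19015660, minus strand) has matches that begin 24 and 12 bases before the start, and the Nfkbia window (chr12:55492598-55492897, minus strand) has them 178 and 29 bases before. In Nfkbid (chr7:30422156-30422455, plus strand) matches to the second form begin 226, 181 and 165 bases before the start, and in Nfkb2 (chr19:46304487-46304786, plus strand) matches begin 39, 38 and 10 bases before. A match describes the letters of a window and was not tested for binding.
Tnfaip3: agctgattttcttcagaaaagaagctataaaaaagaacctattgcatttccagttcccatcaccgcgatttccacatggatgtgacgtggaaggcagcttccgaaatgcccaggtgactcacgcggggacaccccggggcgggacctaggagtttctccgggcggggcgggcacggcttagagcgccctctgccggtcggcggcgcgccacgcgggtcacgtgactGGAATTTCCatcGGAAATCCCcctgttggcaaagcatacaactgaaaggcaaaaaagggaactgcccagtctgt
Nfkbia: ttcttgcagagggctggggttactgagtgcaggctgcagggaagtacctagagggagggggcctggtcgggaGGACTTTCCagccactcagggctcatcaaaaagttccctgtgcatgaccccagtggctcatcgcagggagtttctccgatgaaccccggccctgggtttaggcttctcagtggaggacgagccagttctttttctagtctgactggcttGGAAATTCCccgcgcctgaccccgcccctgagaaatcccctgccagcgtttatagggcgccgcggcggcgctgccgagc
Nfkbid: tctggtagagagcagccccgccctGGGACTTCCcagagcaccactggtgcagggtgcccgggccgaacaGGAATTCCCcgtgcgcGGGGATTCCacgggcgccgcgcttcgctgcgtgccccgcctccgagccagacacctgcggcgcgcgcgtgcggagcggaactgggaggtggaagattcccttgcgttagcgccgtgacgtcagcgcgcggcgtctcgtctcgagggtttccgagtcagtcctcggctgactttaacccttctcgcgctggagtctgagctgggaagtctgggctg
Nfkb2: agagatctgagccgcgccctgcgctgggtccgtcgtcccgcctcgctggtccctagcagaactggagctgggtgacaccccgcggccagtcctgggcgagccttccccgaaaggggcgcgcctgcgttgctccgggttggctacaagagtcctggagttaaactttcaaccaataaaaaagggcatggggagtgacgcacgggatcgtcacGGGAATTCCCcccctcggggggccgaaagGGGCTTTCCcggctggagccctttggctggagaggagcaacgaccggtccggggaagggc

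The rest of the pathway was described from lists of ligands, receptors, adaptors, kinases, further inhibitors and target genes, 107 distinct genes of which 104 were tested. After Benjamini-Hochberg adjustment of edgeR's quasi-likelihood test, 0 of the 104 had an FDR under 0.1; at an unadjusted p under 0.05, 2 were lower and 3 higher with tRA, where 3.55% and 2.94% of all genes were, and their median log2 fold change was 0.0072. Among 11 ligands the median was -0.06, and 1 was lower at that p: Lta, lymphotoxin alpha, at 34.8 ± 2.40 CPM (SD, n = 4) in control and 28.6 ± 2.77 CPM (SD, n = 4) in tRA mice. All tRA mice lay below all control mice for Lta, and its FDR was 0.757 in edgeR's quasi-likelihood test. Ltb, lymphotoxin beta, was the most abundant ligand per length, at a mean of 296 RPKM, with CPM ranges of 406 to 542 in control and 398 to 479 in tRA mice. Cd40lg, the T cell ligand of CD40, had the smallest p of the ligands with a positive log2 fold change, 0.23 ± 0.106 (SE). Of 17 receptors (median 0.06), 1 was higher, Tlr1, a receptor for bacterial lipopeptides, with a log2 fold change of 0.15 ± 0.0639 (SE). The BAFF receptor gene Tnfrsf13c was the most abundant receptor, at a mean of 81.1 RPKM, and had the smallest p of those below 0, with a log2 fold change of -0.20 ± 0.0917 (SE).

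Of 25 adaptors and ubiquitin ligases (median log2 fold change 0.0092), 1 was higher at an unadjusted p under 0.05, Ripk1, a kinase and scaffold below the TNF receptor, at 54.2 ± 3.50 CPM (SD, n = 4) in control and 61.3 ± 4.31 CPM (SD, n = 4) in tRA mice. Tradd, an adaptor of the TNF receptor, had the smallest p below 0, with a log2 fold change of -0.19 ± 0.0978 (SE). Among 12 genes of the IKK kinases and their partners (median 0.08), 0 passed at that p in either direction. Ikbkb, the kinase that marks the classical inhibitor, ranged from 397 to 414 CPM in control and from 418 to 458 CPM in tRA mice, so its groups did not overlap, with a log2 fold change of 0.13 ± 0.0631 (SE). Tab2 was the most abundant of these per length, at a mean of 44.0 RPKM, and Tab1 had the smallest p below 0, with a log2 fold change of -0.04; both encode partners of the kinase TAK1.

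Of 16 further inhibitors (median log2 fold change 0.02), 1 was higher at an unadjusted p under 0.05: Irak3, which blocks signaling below Toll-like receptors, at 41.7 ± 1.91 CPM (SD, n = 4) in control and 49.1 ± 3.74 CPM (SD, n = 4) in tRA mice. All tRA mice were above all control mice for Irak3, and its FDR was 0.757 in edgeR's quasi-likelihood test. Nfkbie, another cytoplasmic inhibitor, had the smallest p below 0, with a log2 fold change of -0.15 ± 0.0672 (SE), and Zc3h12a, an RNase that degrades inflammatory transcripts, was the most abundant per length, at a mean of 41.5 RPKM. For 3 of these 16, tRA mice 3 and 4 were the 2 lowest, where 10.4% of all genes showed it. For 2 of the 16, tRA mouse 1 was the highest, where 12% of all genes showed it. In the lists above, tRA mice 3 and 4 were the 2 lowest for 1 of 11 ligands, 1 of 17 receptors, 4 of 25 adaptors and 1 of 12 IKK genes. Over all 104 pathway genes, targets included, they were the 2 lowest for 22, and tRA mouse 1 was the highest for 23.

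Of 31 listed target genes of NF-kB, 28 were tested. In 12 of them tRA mice 3 and 4 were the 2 lowest, where 10.4% of all genes were, and in 12 tRA mouse 1 was the highest, where 12% of all genes were. Ccr7, the receptor that guides lymphocytes to T cell zones and the most abundant target per length, ranged from 228 to 315 CPM in the control mice and from 169 to 435 CPM in the tRA mice, with a fold of 2.36 between tRA mice 1 and 3. Its log2 fold change was 0.01 ± 0.256 (SE). At an unadjusted p under 0.05, 1 target was lower, Il12b, a weakly expressed cytokine gene, at 1.40 ± 0.322 CPM (SD, n = 4) in control and 0.763 ± 0.288 CPM (SD, n = 4) in tRA mice. Csf2 had the smallest p above 0, at under 1 CPM in both groups. The median log2 fold change of the targets was -0.11.

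Genes outside the pathway moved with the same mice. Immediate early genes, which cells switch on within minutes of stimulation, summed to 21629, 20300, 19141 and 17475 CPM in control mice 1 to 4 and 20933, 16061, 7769 and 9794 CPM in tRA mice 1 to 4. The sum was lowest in tRA mice 3 and 4, as for the inhibitors, and tRA mice 3 and 4 were the 2 lowest for 14 of the 14 genes, where 10.4% of all genes showed it. This order was picked after values were seen and the list was chosen with earlier results known, so the count describes these mice and tests nothing. At an unadjusted p under 0.05, 4 of the 14 were lower with tRA, where 3.55% of all genes were, and the median log2 fold change was -0.45. Fos, the most abundant of them per length, ranged from 2866 to 3337 CPM in the control mice and from 1117 to 3563 CPM in the tRA mice, and Jun, with the smallest p, was at 2511 ± 268 CPM (SD, n = 4) and 1683 ± 378 CPM (SD, n = 4). Heat shock genes summed to 6337, 5232, 9581 and 6455 CPM in the control mice and 4181, 5358, 2739 and 4988 CPM in the tRA mice, with 8 of 9 lower at that p and a median of -1.03. The heat shock sum was lowest in tRA mouse 3 and next lowest in tRA mouse 1, so the sum did not follow the order of the inhibitors. For 3 of the 9 heat shock genes (Hspa8, Hsp90aa1 and Bag3) tRA mice 3 and 4 were the 2 lowest, where 10.4% of all genes showed it. Hspa8, the most abundant heat shock gene, averaged 2354 ± 375 CPM (SD, n = 4) and 1858 ± 314 CPM (SD, n = 4), and Bag3, with the smallest p, had a log2 fold change of -0.88 ± 0.239 (SE). The part of these genes in the values of the NF-kB genes was not tested.

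Cell type markers were set beside the same mice. B cell markers (8 genes, median log2 fold change 0.02) summed to 7570, 7174, 6929 and 6322 CPM in the control mice and 7043, 7131, 7188 and 6974 CPM in the tRA mice, and Cd79a was the most abundant. T cell markers (8 genes, median 0.11) summed to 1540, 1593, 1898 and 1888 CPM and to 1854, 1774, 1828 and 1794 CPM, with Trac the most abundant per length. Neither sum was low in tRA mice 3 and 4, where the inhibitors were. Cd79a itself was lowest in these mice, at 1227 and 1179 CPM against 1273 to 1540 CPM in the control mice. This order held for 1 of the 8 B cell markers. Blk was also below every control mouse in tRA mice 3 and 4, at 300 and 272 CPM against 313 to 352 CPM. Cd22 and Fcer2a were instead highest of the 8 mice in tRA mouse 3, at 1309 and 929 CPM. Plasma cell markers (6 genes, 2 lower at an unadjusted p under 0.05, median -0.08) summed to 1070, 1025, 1041 and 1228 CPM in the control mice and 944, 1070, 809 and 820 CPM in the tRA mice, with Jchain the most abundant. Their sum was lowest in tRA mice 3 and 4. Without Irf4, which was picked once the values were known, it was 577, 768, 651 and 642 CPM in the tRA mice and 794, 760, 849 and 963 CPM in the control mice, with tRA mouse 1 the lowest and tRA mice 3 and 4 still below every control mouse. Neutrophil precursor markers, with 8 of 8 lower at that p and a median of -0.90, summed to 542, 680, 715 and 614 CPM in the control mice and 242, 301, 329 and 477 CPM in the tRA mice. All tRA mice lay below all control mice in this sum, with tRA mouse 1 the lowest, and the most abundant gene was Ngp. Ctsg was near 0, at 1.00 to 1.68 CPM in the control mice and 0.567 to 0.814 CPM in the tRA mice.

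Mature neutrophil markers (8 genes, 3 lower at an unadjusted p under 0.05, median -0.27, S100a9 the most abundant per length) went both ways. The log2 fold change was below 0 for 5 and above 0 for 3, among them Cxcr2 at 0.39 and Csf3r at 0.25. Their sum lay between 470 and 921 CPM over the 8 mice, lowest in tRA mouse 3. For NK cell markers (6 genes, median -0.05, Gzma the most abundant) the sums lay between 284 and 440 CPM. Monocyte and macrophage markers (8 genes, median 0.0059, Lyz2 the most abundant) summed to between 794 and 1309 CPM, and dendritic cell markers (8 genes, median -0.08, Itgax the most abundant) to between 160 and 260 CPM. Each of these sums overlapped between the groups, as did those of erythroid markers (6 genes, median 0.44, Hbb-bs the most abundant), which ranged most widely, from 491 to 2396 CPM in control and from 587 to 3541 CPM in tRA mice. Platelet markers (4 of 5 tested, median -0.04, Gp1ba the most abundant per length) summed to at most 11.7 CPM, and stromal and endothelial markers (6 genes, median 0.01) to between 243 and 261 CPM, nearly all of it Pecam1, so this sum does not give the level of stromal or endothelial cells. The part of cell composition in the values of the NF-kB genes was not tested.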

How the data were processed

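Raw counts per gene were deposited by the authors for 8 libraries of total splenocytes (TruSeq v2), without normalization. The paper's methods name trimming with ea-utils and Btrim, alignment with Bowtie2 and Tophat2 to Ensembl release 74 and counting with HTSeq, whereas the submitters' processing notes list STAR 2.5.2b, featureCounts 1.5.1, DESeq2 1.26.0 and GRCm38. The strand setting is not given in the sources used here. The authors' comparison columns (means, fold changes, errors, test statistics and p-values) were not used. The analysis used edgeR 4.0.16 under R 4.3.3 (filterByExpr with a minimum of 10 counts, TMM, quasi-likelihood test, Benjamini-Hochberg over 16484 genes, FDR under 0.1), and exact permutation tests in Python 3.11.15 with scipy 1.17.1 used all 70 assignments of the 8 libraries. Of the 51826 identifiers, 51633 had an entry in GENCODE M21. Log2 CPM for spread and likeness used a prior count of 2. The scripts were tested on simulated data. Alternatives were DESeq2 1.42.0, limma-voom (limma 3.58.1), RLE normalization, library size alone, other filters, the replicate number as a block, and each library left out. The members and lists were chosen with earlier results of these data known. In each list, the genes named are the one with the smallest p in each direction and the one with the highest mean RPKM; in marker lists, the most abundant gene and those at or near 0. Nfkb2, Cxcr4, Blk, Cd22 and Fcer2a were singled out, and the counts by the order of the mice made, after values were seen. Of the genes named by list, 1 is not reported here. Protein sequences were not analysed here.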

Additional observations from a re-analysis of the deposited data

Results flagged for a closer look

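Of 62 groups of 4 mice examined (the 10 genes and the lists, in each treatment), 2 had a mouse that stood far from the other 3 by a gap test at the 5% level, where chance would give about 3.1. Rela was at 171 CPM in tRA mouse 1, against 153, 154 and 155 CPM in the other tRA mice. NK cell markers summed to 313 CPM in tRA mouse 4, against 350, 352 and 352 CPM in the other tRA mice. The wide spread of Tnfaip3 and Nfkbid did not meet this test, since the values of their tRA mice lay spread out and no mouse stood alone.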

How the results depend on the processing

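Of 150 fold changes of the 10 genes under 15 alternatives, 146 kept their sign, and FDRs lay between 0.231 and 1. The 4 that reversed were Nfkb1 with library size alone (0.017), without control mouse 1 (0.00026) and without tRA mouse 1 (0.0063), and Nfkbiz without tRA mouse 3 (0.030). With 1 mouse left out, Nfkb1 ranged from -0.043 to 0.0063 and Nfkbiz from -0.20 to 0.030. The cause of these changes was not tested. None of the alternatives called any of the 10. Calls in the whole table numbered 27 with DESeq2, 1 with limma-voom, 6 with no filter on low counts, and 0 to 3 with 1 mouse left out (3 without tRA mouse 4). Genes at an unadjusted p under 0.05 numbered 1070, and 657 to 2105 with 1 mouse left out (657 without tRA mouse 4, 2105 without tRA mouse 1). Of the 10 genes, 0 to 5 passed at that p and 1 to 5 had all tRA mice below all control mice with 1 mouse left out. With library size alone, 0 of the 10 had groups that did not overlap, and tRA mice 3 and 4 were the 2 lowest for 3 of the 10 in place of 5. With a control mouse, tRA mouse 1 or tRA mouse 2 left out, they were the 2 lowest for 5 to 7 of the 10 (6 without control mouse 3, 7 without tRA mouse 2). The shares over all genes with a mouse left out are not given here. With fewer mice this order is easier to meet for any gene, so a rise in these counts cannot be read as a result about the 10.

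The labels number the mice 1 to 4 in both groups. Correlations between same-numbered mice of their deviations from the group means were 0.157, -0.0229, -0.0140 and 0.259, and 2 of the 4 control mice correlated best with their own number. The labels name nothing else that same-numbered mice share, and these mixed values do not decide whether they share more than the number. With the replicate number as a block, 0 genes had an FDR under 0.1. In that fit 1200 of the 16484 genes tested had an unadjusted p under 0.05 in either direction. Of the 10 genes, 3 did (Relb, Rel and Nfkbia). The edgeR fold change compares mean counts. Where the tRA mice spread widely, fits that average log values or use the block gave larger values: -0.69 with limma-voom and with the block for Tnfaip3 in place of -0.33, and -0.63 with both for Nfkbid in place of -0.36. The lowest count behind a value of the 10 genes was 1527, and counting error was not separated from the spread between mice.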
